A study of Mus musculus with 6 samples.

Results

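Red blood cells and platelets come from progenitors that switch on a shared set of genes, and 30 of these genes were followed here in myeloid cells that carry a leukemia fusion protein. They were chosen by gene name, as genes of the erythroid and megakaryocyte lineages that a myeloid leukemic progenitor is not on its way to become. All 30 were found once each among the 24012 genes of the count table. By role they were 7 transcription regulators, 2 receptors, 2 globins, 4 enzymes of heme synthesis, 2 carbonic anhydrases, 5 proteins of the red cell membrane and its skeleton, 2 platelet chemokines and 6 platelet receptors and adhesion proteins.

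The cells were mouse bone marrow hematopoietic progenitors transduced with a retrovirus that expresses the leukemia fusion MLL-AF9. The fusion was either the mutant D546R, the mutant D544R or the wild-type form (WT), so all 3 genotypes carried MLL-AF9 and none was a normal progenitor without it. Chromatin immunoprecipitation and sequencing (ChIP-seq) measured H3K79me2 and H3K79me3, the di- and trimethylated forms of lysine 79 of histone H3. There was 1 library for each genotype and mark, 6 in all. No difference between genotypes could therefore be tested against the spread between cultures, and the intervals given cover counting error only. In such bulk samples a mark in fewer cells and less of it per cell cannot be told apart.

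H3K79 methylation is laid down by the enzyme DOT1L along the bodies of transcribed genes, and AF9 is one of the proteins that bind DOT1L. MLL fusions bring DOT1L to a limited set of targets that keep progenitors immature. Erythroid and megakaryocyte genes are switched on by GATA1 with its cofactor FOG1 (the Zfpm1 product), by KLF1 in red cell precursors and by NF-E2 late in both lineages, and most are silent in granulocytes and macrophages.

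The libraries held 3558329 to 6652571 counts, of which the 30 genes took between 2510 and 6427, or 0.0705% to 0.0966%. A counted region held the transcript and 2 kb beside it, with coordinates of the mm9 build. Counts were divided by size factors within each mark and by region length. Levels per kb are given as multiples of the median of 1122 olfactory receptor genes in the same library, which are silent in blood cells. The 90th percentile of those silent genes stood at 2.43, 2.01 and 2.19 times their median in D546R, D544R and WT in H3K79me2. In H3K79me3 it stood at 4.71, 3.94 and 3.92 times, so a level up to about that size was within the range of silent genes. Reads per independent fragment were estimated from the share of short regions with no count, taking the same density for all of them. Regions that differ in level raise this share too, so clumping of reads was not measured on its own. The estimates were 4.78, 3.26 and 4.05 in H3K79me2 in D546R, D544R and WT, and 18.6, 8.12 and 9.73 in H3K79me3. Beside each 95% counting interval a fragment interval is given that divides the counts by these numbers. Of 16 progenitor and myeloid marker genes, among them Kit, Spi1 and Mpo, 9, 10 and 9 lay at 3 times the silent level or more in H3K79me2 in D546R, D544R and WT. Their summed level was 12.6, 10.2 and 10.3 normalised counts per kb there. None of 10 lymphoid markers reached 3 times in any library, and 1 of 7 mast cell and basophil markers (Ms4a2) did so in D546R in H3K79me2 alone. In H3K79me2 the fusion target Meis1 had 480 reads in D546R, 6154 in D544R and 7372 in WT. These reads are not scaled for depth, and the size factors were 0.764, 0.972 and 1.35. They therefore do not rank D544R and WT.

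Most of the 30 genes lay near the level of silent genes in both marks. Their median level in H3K79me2 was 1.19 times the silent median in D546R, 1.17 times in D544R and 1.12 times in WT, beside 1.26, 1.30 and 1.27 times for all genes. In H3K79me3 it was 1.54, 1.20 and 1.21 times, beside 1.51, 1.30 and 1.32 times for all genes. The 30 genes thus sat at about the level of the median gene of the table. In WT the 16 progenitor and myeloid genes had medians of 4.16 times in H3K79me2 and 2.42 times in H3K79me3. The 12 housekeeping genes stood at 6.00 and 3.32 times and the 8 MLL-AF9 targets at 15.8 and 7.35 times, while the 10 lymphoid genes stood at 1.22 and 1.20 times.

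**Figure D1:**
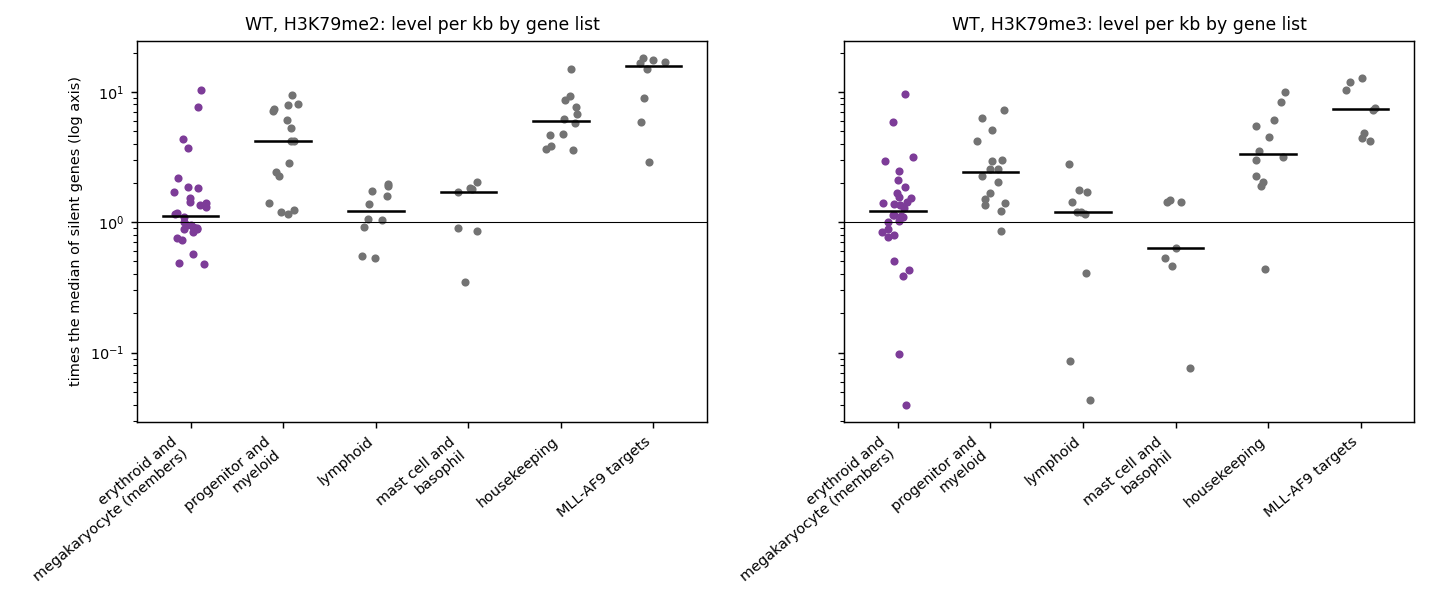
Level per kb in the WT library of each mark, in multiples of the median of silent olfactory receptor genes (log axis; values under 0.04 are drawn at 0.04). Each point is 1 gene, the bar is the list's median and the line at 1 is the silent median. The erythroid and megakaryocyte genes, with medians of 1.12 (H3K79me2) and 1.21 (H3K79me3), spread around the silent line apart from a few genes above it, and the MLL-AF9 targets lie highest, at 15.8 and 7.35.

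Genes at 3 times the silent level or more were few. There were 2 of 30 in D546R, 4 in D544R and 4 in WT in H3K79me2, and 5, 3 and 3 in H3K79me3. Among all 24012 genes, 21.5%, 18.4% and 17.8% reached this level in H3K79me2 and 15.4%, 9.98% and 12.2% in H3K79me3. In both marks and all 6 libraries 2 genes reached it, Nfe2 and Tfrc. Against their label as genes of other lineages, both lay above the median of the progenitor and myeloid markers in every library.

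Nfe2 encodes the p45 subunit of NF-E2, which platelet formation needs and which myeloid cells also express. Its region (mm9 chromosome 15, 103076648 to 103085847) had 235 reads in D546R, 263 in D544R and 293 in WT in H3K79me2. These levels were 15.2, 13.0 and 10.4 times silent, and they placed Nfe2 at percentiles 98.996, 98.8 and 97.99 of all genes. In H3K79me3 the gene had 195, 133 and 310 reads, or 5.66, 4.43 and 9.68 times silent. Nfe2 led the 30 genes in every library of H3K79me2, and in H3K79me3 in WT.

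Tfrc encodes the transferrin receptor, which brings iron into red cell precursors and into dividing cells of other kinds. It had 385, 426 and 609 H3K79me2 reads in D546R, D544R and WT (mm9 chromosome 16, 32606981 to 32632880), or 8.86, 7.47 and 7.65 times silent. In H3K79me3 it had 668, 323 and 529 reads, or 6.88, 3.82 and 5.86 times silent. The D544R level in H3K79me3 lay just below the 90th percentile of silent genes in that library, 3.94 times. With Nfe2, Tfrc stood apart from the other regulators and receptors of the 30, which the plot of all levels shows.

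**Figure D2:**
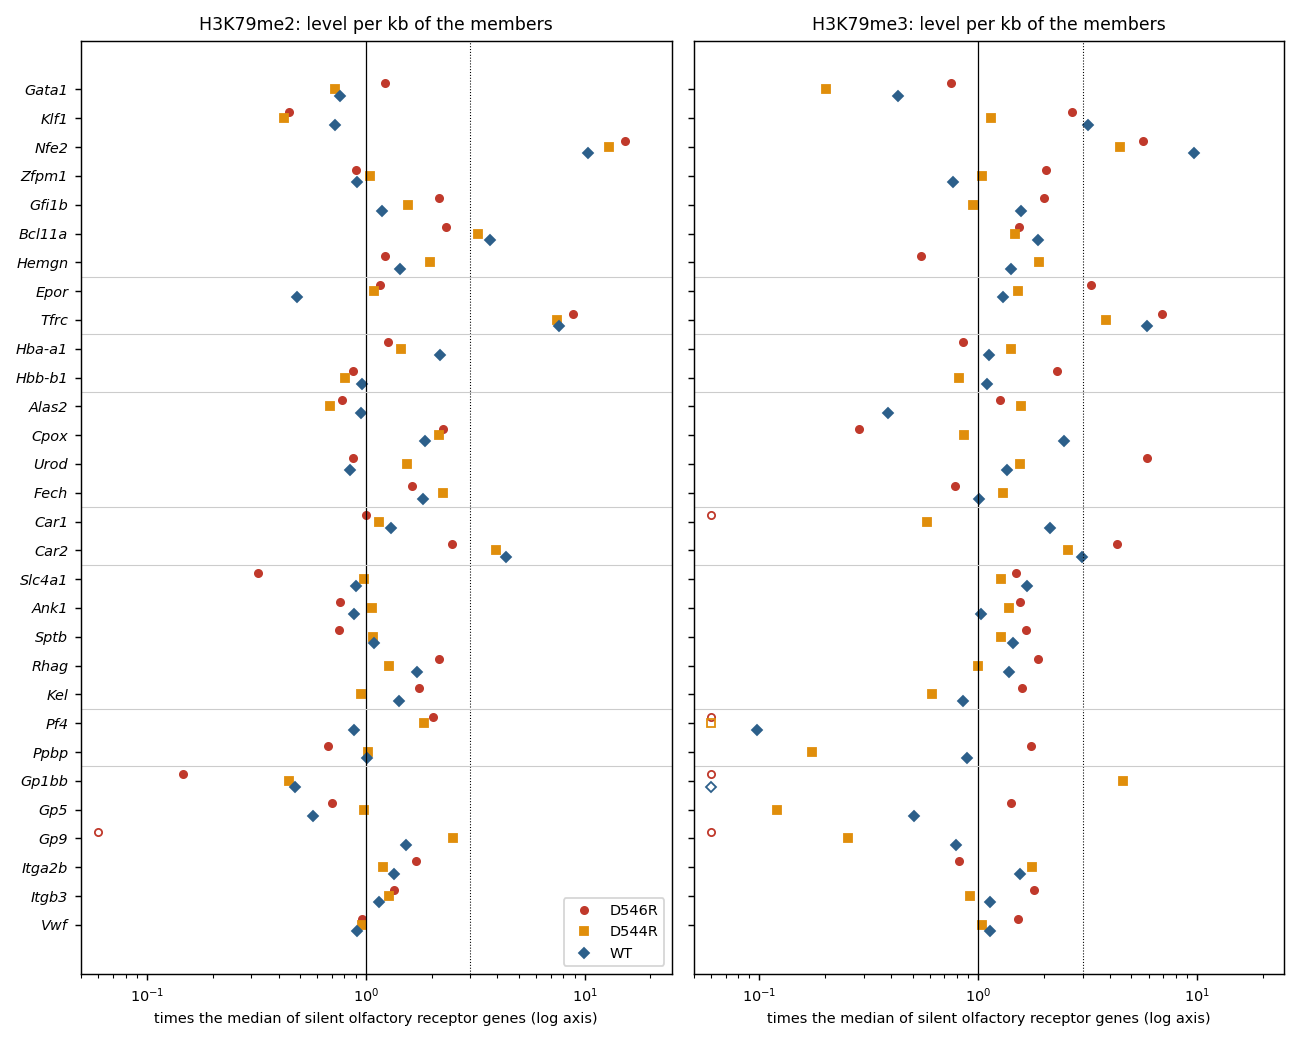
Level per kb of the 30 genes in D546R, D544R and WT (1 library each), in multiples of the silent median (log axis), grouped by role from regulators at the top to platelet receptors at the bottom. The solid line marks the silent median, the dotted line 3 times it, and an open marker at the left edge is a count of 0. Nfe2 and Tfrc lie beyond the dotted line in all 6 libraries, and most other genes lie around the solid line, with a wider spread between genotypes in H3K79me3 than in H3K79me2.

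Other genes reached 3 times silent in a part of the libraries. Car2, a carbonic anhydrase of red cells and many other tissues, stood at 2.48, 3.92 and 4.36 times in H3K79me2 in D546R, D544R and WT and at 4.28, 2.57 and 2.97 times in H3K79me3. Its H3K79me3 levels all lay below the 90th percentile of silent genes. Bcl11a, which represses fetal globin and serves B cell development, stood at 2.33, 3.26 and 3.69 times in H3K79me2, and its H3K79me3 levels were 1.53, 1.48 and 1.86 times. Fragment intervals of the level lay above the silent median for Nfe2, Tfrc, Car2 and Bcl11a in each of the 6 libraries. For Bcl11a in H3K79me3 this did not mean a high level. Over its region of 97.5 kb it stood at percentiles 57.7, 62.7 and 69.3 of silent genes in D546R, D544R and WT.

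The genes that define the lineages were not among the high ones in H3K79me2. Gata1 (mm9 chromosome X, 7534385 to 7545036), the master regulator of both lineages, had 22, 17 and 25 H3K79me2 reads in D546R, D544R and WT and 30, 7 and 16 H3K79me3 reads. Its levels were 1.23, 0.73 and 0.76 times silent in H3K79me2 and 0.75, 0.20 and 0.43 times in H3K79me3, with fragment intervals that held the silent median in all 6. Klf1, the erythroid regulator, had 4, 5 and 12 H3K79me2 reads, at 0.44, 0.42 and 0.73 times silent.

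In H3K79me3 Klf1 had 54, 20 and 59 reads in D546R, D544R and WT, or 2.68, 1.14 and 3.16 times silent. The WT level was past 3 times, yet below the 90th percentile of silent genes in that library. The repressor gene Gfi1b ranged from 0.95 to 2.17 times over the 6 libraries and Hemgn, a nuclear protein gene of blood precursors, from 0.55 to 1.97 times.

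The globins, the bulk of red cell protein, had few reads. Hba-a1 had 6, 9 and 19 H3K79me2 reads in D546R, D544R and WT and 9, 13 and 11 H3K79me3 reads. Its region is shared to 99.9% with that of Hba-a2, which had the same counts, so the pair cannot be told apart. Hbb-b1 had 5, 6 and 10 H3K79me2 reads and 29, 9 and 13 H3K79me3 reads, again shared with an overlapping region, Hbb-bs. Globin genes are near-identical copies, and reads may be split between them.

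Red cell membrane genes stayed below 3 times the silent level. The level of Slc4a1 (the anion exchanger band 3), Ank1 (ankyrin), Sptb (beta spectrin), Rhag (an ammonium channel of the Rh complex) and Kel (the Kell blood group protein) ranged from 0.32 to 2.17 times in H3K79me2 and from 0.61 to 1.87 times in H3K79me3. Fragment intervals of the level lay above the silent median for Rhag in H3K79me2 in D546R and WT. In H3K79me3 they did so for Ank1 in D546R and D544R and for Sptb in D546R and WT. Of the platelet genes, the chemokine gene Pf4 had 10, 12 and 8 H3K79me2 reads in D546R, D544R and WT and 0, 0 and 1 H3K79me3 reads. Ppbp, the other platelet chemokine gene, had 4, 8 and 11 H3K79me2 reads, its WT level of 1.01 times being the closest of the 30 to silent. Itga2b and Itgb3 (the fibrinogen receptor chains) and Vwf (von Willebrand factor) ranged from 0.91 to 1.70 times in H3K79me2 and from 0.82 to 1.80 times in H3K79me3. The glycoprotein genes Gp1bb, Gp5 and Gp9 had 0 to 27 reads a library apart from Gp1bb in D544R in H3K79me3, described further on. Gp9 in D544R in H3K79me2, with 20 reads, stood at 2.51 times silent, above the 90th percentile of silent genes in that library.

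Promoter sequences were set beside these levels, since the counted region of a plus-strand gene includes its promoter. They were taken from RefSeq (GRCm38.p6, 250 bases before to 50 after the start), where 21 of the 30 genes had one. Tfrc is shown as a gene high in both marks and Ppbp as one at the silent level, and Zfpm1 and Alas2 were added after their values were seen, as the genes with higher H3K79me3 counts in mutants described next. All are 5′ to 3′ on the plus strand, at chr16:32608646-32608945, chr5:90768268-90768567, chr8:122281891-122282190 and chrX:150547167-150547466. Capitals mark the letters AGATAA or TGATAA, bound by GATA factors, and CCACCC, bound by KLF factors, or their reverse complements.
Tfrc: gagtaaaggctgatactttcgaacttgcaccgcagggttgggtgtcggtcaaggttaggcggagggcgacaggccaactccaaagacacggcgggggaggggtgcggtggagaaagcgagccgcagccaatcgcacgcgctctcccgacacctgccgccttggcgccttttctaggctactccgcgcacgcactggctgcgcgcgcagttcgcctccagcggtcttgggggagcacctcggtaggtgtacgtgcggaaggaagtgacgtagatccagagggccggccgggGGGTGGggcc
Ppbp: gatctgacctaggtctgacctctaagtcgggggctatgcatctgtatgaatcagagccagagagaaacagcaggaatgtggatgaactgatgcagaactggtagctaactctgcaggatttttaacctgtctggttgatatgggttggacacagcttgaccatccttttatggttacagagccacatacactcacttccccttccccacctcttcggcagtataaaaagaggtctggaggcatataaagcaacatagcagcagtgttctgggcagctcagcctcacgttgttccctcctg
Zfpm1: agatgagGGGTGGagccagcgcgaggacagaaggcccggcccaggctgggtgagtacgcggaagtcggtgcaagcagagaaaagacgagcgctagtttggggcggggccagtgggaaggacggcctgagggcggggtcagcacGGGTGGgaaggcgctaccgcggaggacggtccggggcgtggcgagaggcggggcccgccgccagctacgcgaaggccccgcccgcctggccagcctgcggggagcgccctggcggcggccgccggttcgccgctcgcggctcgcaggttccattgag
Alas2: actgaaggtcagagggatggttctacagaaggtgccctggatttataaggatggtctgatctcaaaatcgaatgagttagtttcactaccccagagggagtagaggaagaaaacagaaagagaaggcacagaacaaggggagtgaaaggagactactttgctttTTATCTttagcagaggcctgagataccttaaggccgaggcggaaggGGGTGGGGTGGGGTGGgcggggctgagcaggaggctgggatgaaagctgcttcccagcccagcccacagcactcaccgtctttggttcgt
Tfrc held 1 CCACCC, 40 bases after its start, and Ppbp held none of these letters. Zfpm1 held 2 CCACCC, and Alas2 held 3 side by side with 1 AGATAA, each on the minus strand. AGATAA or TGATAA was present in 11 of the 21 promoters (52.4%) and in 19.0% of 27025 genes, CCACCC in 13 (61.9%) and 30.9%, and both in 6 (28.6%) and 4.36% (either strand). Those with both were Klf1, Epor, Hba-a1, Alas2, Rhag and Kel. None of these 6 reached 3 times silent in H3K79me2, and Klf1 in WT and Epor in D546R did so in H3K79me3. Both of these levels lay below the 90th percentile of silent genes in their library. A match of letters is a description and not a bound site.

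The question behind D546R against WT in H3K79me2 is whether dimethylation depends on the residue exchanged in the fusion. The 2-fold rule used here asks for a difference of 2-fold or more, a counting interval without 0 on the log2 scale, and a normalised count averaging at least 100 across the mark's 3 libraries, which 11 of the 30 genes reached in this mark. None of the 11 was past the rule in either direction, beside 0.853% of 8905 genes higher and 0.865% lower. At such a background no call among 11 genes sets them apart from the table. The median log2 ratio was -0.01 over the 25 of the 30 genes with a mean of at least 10, beside 0.01 over all genes, with 13 below and 12 above 0. Of all 20308 genes with such a mean, 10055 were below and 10253 above 0.

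Below 2-fold, 3 of the 30 genes were lower in D546R in H3K79me2 with a fragment interval that excluded no change and 0 were higher, beside 2.05% of all 24012 genes lower and 5.84% higher. Bcl11a (mm9 chromosome 11, 23976055 to 24073558) had 382 reads in D546R, 700 in D544R and 1107 in WT. After scaling its log2 ratio was -0.72 (fragment interval -1.10 to -0.35). Car2 (mm9 chromosome 3, 14884425 to 14900770), with 68 reads in D546R, 141 in D544R and 219 in WT, stood at -0.87 (-1.83 to -0.01). Sptb, with 168, 313 and 442 reads, stood at -0.58 (-1.17 to -0.02). Size factors over all 6 libraries, or silent genes as the scaling, raised log2 ratios of this comparison by 0.04 or 0.06. Under either, the fragment intervals of Car2 and Sptb would include no change. For Bcl11a and Car2 the normalised level was lowest in D546R and highest in WT, whereas in Sptb D544R and WT were close together, at 1.08 and 1.09 times silent.

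The 8 other genes with a mean of at least 100 stood between -0.27 (Ank1) and 0.50 (Nfe2). For Nfe2 the counting interval of D546R against WT was 0.25 to 0.75 and the fragment interval -0.05 to 1.04. Among genes with fewer reads, Slc4a1 had 10, 40 and 51 in D546R, D544R and WT, a log2 ratio of -1.498 against WT with a fragment interval of -4.63 to 0.59. Gp9, a platelet glycoprotein gene, had 0, 20 and 17 reads in D546R, D544R and WT. Its counting interval in D546R against WT ended at -1.23 on the log2 scale and its fragment interval at 1.55, so the fragment interval included no change.

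D544R against WT in H3K79me2 showed smaller differences. None of the 11 genes was past the rule, beside 0.0337% of 8905 genes higher and 0.0112% lower. The log2 ratios of the 11 ran from -0.43 (Rhag) to 0.31 (Nfe2), and the median over 25 genes was 0.12, beside 0.00 over all genes. Fragment intervals included no change for all 30 genes, and excluded it for 0.883% of all genes on the higher and 0.82% on the lower side. Bcl11a stood at -0.19 (-0.46 to 0.07) and Car2 at -0.17 (-0.78 to 0.44). This comparison and that of D546R share the WT library, so their values are not independent.

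D546R against D544R in H3K79me2 also had no gene of the 11 past the rule, beside 0.752% higher and 0.876% lower in the table. The median was -0.04, beside 0.01 over all genes. Bcl11a was lower in D546R than in D544R by a log2 ratio of -0.53 (fragment interval -0.91 to -0.15) and Ank1 by -0.53 (-1.04 to -0.04). Size factors over all 6 libraries raised these ratios by 0.05, and the Ank1 interval would then include no change. Car2 and Sptb, at -0.70 and -0.55, had fragment intervals that included no change. Over all genes, fragment intervals excluded no change for 5.41% on the higher and 1.9% on the lower side.

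**Figure D3:**
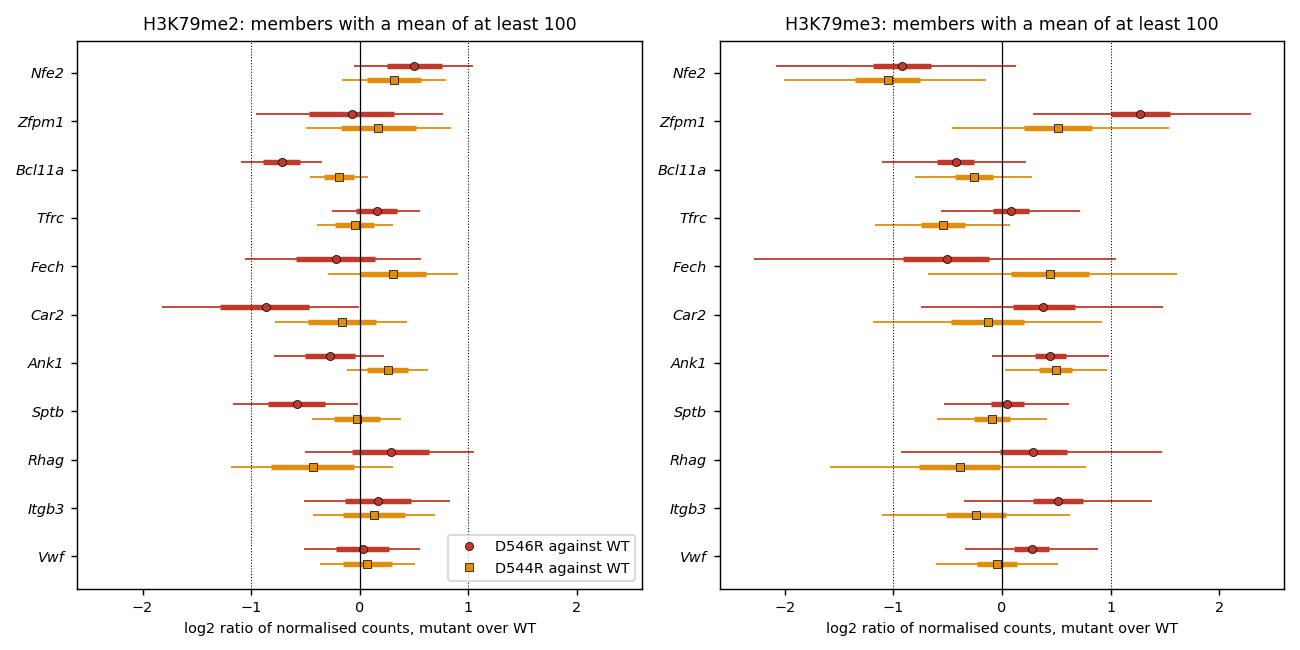
Log2 ratio of normalised counts of D546R and D544R, each against WT, for the 11 genes with a mean of at least 100 in either mark. Thick lines are 95% counting intervals, thin lines fragment intervals, and dotted lines mark 2-fold. In H3K79me2 no gene passes 2-fold and Bcl11a in D546R lies farthest from 0 relative to its interval, while in H3K79me3 Zfpm1 lies above 2-fold in D546R and Nfe2 below it in D544R.

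D546R against WT in H3K79me3 addressed the same question for trimethylation. Of the 11 genes with a mean of at least 100, 1 was past the rule and higher (Zfpm1) and 0 were lower, beside 6.95% of 10824 genes higher and 8.91% lower. Read against that background, 1 call in 11 is near what the table gives. With fragment intervals in the rule Zfpm1 stayed past it, beside 4.26% of the table higher and 5.55% lower. Zfpm1 (mm9 chromosome 8, 124804040 to 124861147), which encodes the GATA1 cofactor FOG1, had 437 reads in D546R, 193 in D544R and 152 in WT. Its level was 2.04, 1.04 and 0.76 times silent in D546R, D544R and WT, highest in D546R. Against WT the log2 ratio in D546R was 1.27 (counting interval 1.00 to 1.55, fragment interval 0.29 to 2.30), and in D544R it was 0.52 (fragment interval -0.46 to 1.54). D546R against D544R stood at 0.75, with a fragment interval of -0.13 to 1.64 that included no change. In H3K79me2 the same gene had 87, 131 and 161 reads and a ratio of -0.07 in D546R against WT (-0.96 to 0.76).

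The median over the 28 genes with a mean of at least 10 was 0.24, beside 0.00 over all genes, with 10 genes below and 17 above 0 and no ratio for Gp1bb, which had 0 reads in both. Of all 21777 genes with such a mean, 10899 were below and 10823 above 0. The median of the members turned to -0.11 without the 10 genes whose regions overlap those of others. Among the other 10 genes with a mean of at least 100, Itgb3 stood at 0.52, Ank1 at 0.45, Car2 at 0.38 and Vwf at 0.27, and Nfe2 at -0.92, Fech at -0.51 and Bcl11a at -0.43. All 7 had fragment intervals that included no change.

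D544R against WT in H3K79me3 had 1 gene of the 11 past the rule and lower (Nfe2) and 0 higher, beside 3.02% of 10824 genes lower and 4.34% higher. Nfe2, with 195, 133 and 310 reads in D546R, D544R and WT, had a log2 ratio of -1.05 in D544R (counting interval -1.35 to -0.75, fragment interval -2.005 to -0.15). Its ratio in D546R was -0.92 (fragment interval -2.08 to 0.12), short of 2-fold and with no change inside the fragment interval. Both ratios rest on the same WT library. With fragment intervals in the rule Nfe2 stayed past it in D544R, beside 1.66% of the table lower and 2.91% higher. Progenitor and myeloid markers at 3 times silent or more numbered 8, 2 and 5 of 16 in D546R, D544R and WT in this mark, with summed levels of 10.6, 9.60 and 11.04 normalised counts per kb. Their part in the Nfe2 ratio was not tested.

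Ank1, the ankyrin gene, had 1033, 797 and 637 H3K79me3 reads in D546R, D544R and WT. In D544R it was higher than WT by a log2 ratio of 0.50 (fragment interval 0.03 to 0.97), short of 2-fold. Silent genes as the scaling shifted this ratio by -0.08, and its interval would then include no change. Tfrc stood at -0.54 in D544R (-1.17 to 0.08). The median over 28 genes was -0.25, beside -0.01 over all genes, with 18 genes below and 10 above 0. Of all 21777 genes with a mean of at least 10, 11022 were below and 10676 above 0.

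D546R against D544R in H3K79me3 had none of the 11 genes past the rule, beside 5.78% of the table higher and 8.3% lower (3.77% and 5.16% with fragment intervals). The median was 0.42, beside -0.04 over all genes, with 18 of 28 genes above 0. Of all 21777 genes with a mean of at least 10, 10436 were above 0. The largest ratios among the 11 were 0.75 for Zfpm1 and for Itgb3 and -0.95 for Fech, an enzyme that inserts iron into heme. No fragment interval among the 30 genes excluded no change, which it did for 4.66% of all genes on the higher and 5.16% on the lower side.

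Genes with fewer reads differed more in H3K79me3, and here clumping of reads, if present, would matter most. Heme synthesis genes went in different directions. Alas2, the first enzyme of heme synthesis in red cell precursors (mm9 chromosome X, 146979959 to 147005165), had 118, 128 and 34 reads in D546R, D544R and WT. The log2 ratio was 1.53 in D546R (fragment interval -0.56 to 3.95) and 2.07 in D544R (0.37 to 4.29). The fragment interval of D546R included no change, and both ratios rest on the 34 reads of the same WT library. Its H3K79me2 reads were 33, 38 and 74, with ratios of -0.34 and -0.49 and fragment intervals that included no change.

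Cpox, a later enzyme of the pathway, had 13, 34 and 104 H3K79me3 reads in D546R, D544R and WT. Its ratio against WT was -3.19 in D546R (fragment interval -10.66 to -0.10) and -1.43 in D544R (-3.50 to 0.30). Silent genes as the scaling raised the D546R ratio by 0.15, and the fragment interval of Cpox would then include no change. In H3K79me2 it had 46, 58 and 70 reads and stood at 0.21 and 0.20. Urod, which acts just before Cpox, had 136, 31 and 29 H3K79me3 reads and stood at 1.96 in D546R (-0.13 to 4.56). Its region is shared to 16.7% with that of Hectd3, which had 98, 46 and 31 H3K79me3 reads in D546R, D544R and WT, highest in D546R as well. It is also shared to 14.4% with that of Zswim5, which had 646, 549 and 863, highest in WT. The part of shared reads was not tested. In H3K79me2 none of the 3 enzymes differed from WT beyond its counting interval.

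Car1, the red cell carbonic anhydrase next to Car2 on chromosome 3 (mm9, 14764213 to 14778460), had 0 H3K79me3 reads in D546R, 27 in D544R and 105 in WT. D546R was lower than WT, with a counting interval that ended at -5.06 on the log2 scale and a fragment interval that ended at -0.61. In D544R its ratio was -1.77 (-4.13 to 0.08). Its H3K79me2 reads were 24, 36 and 57, with ratios of -0.42 and -0.19 whose counting intervals included no change.

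Gp1bb, a chain of the platelet receptor for von Willebrand factor, had 0, 61 and 0 H3K79me3 reads in D546R, D544R and WT. D544R was higher than WT, with a counting interval that began at 4.18 on the log2 scale and a fragment interval that began at 0.57. D546R against D544R had a counting interval that ended at -4.43, while its fragment interval ended at 0.12 and included no change. The region is shared to 63.5% with that of Sept5, which had 2, 72 and 23 H3K79me3 reads, and in H3K79me2 Gp1bb had 1, 4 and 6. At the estimated 8.12 reads per fragment in that D544R library the 61 reads would correspond to few fragments.

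**Figure D4:**
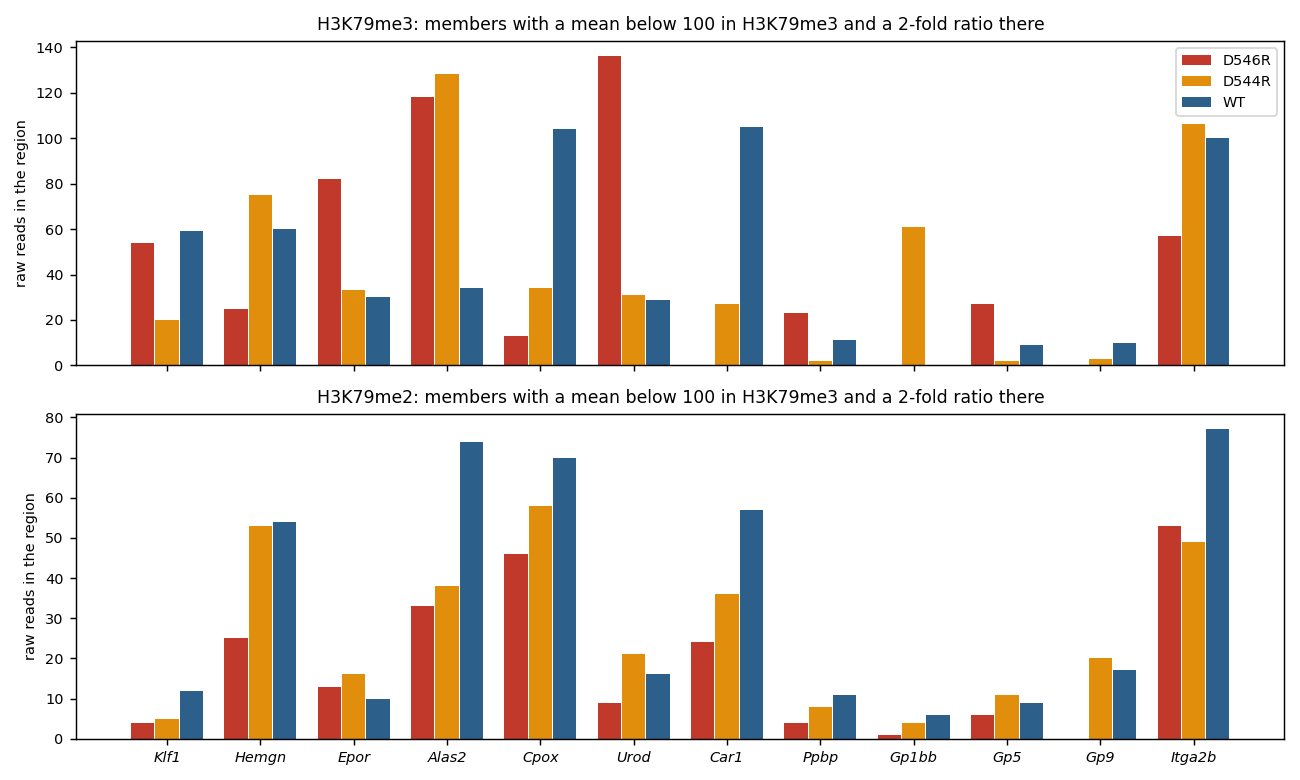
Raw reads in D546R, D544R and WT for genes with a mean below 100 in H3K79me3 whose ratio to WT passes 2-fold there, with a counting interval that excludes no change (top), and the same genes in H3K79me2 (bottom). Bars are single libraries without error bars, not scaled for depth. Alas2 is high in both mutants, Urod in D546R, Gp1bb in D544R (61 reads) and Cpox and Car1 in WT (104 and 105 reads), and the H3K79me2 reads do not follow these orders except for Cpox and Car1, where WT, the deepest H3K79me2 library, is again highest.

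The remaining low genes had wide intervals. Epor, the erythropoietin receptor gene, had 82, 33 and 30 H3K79me3 reads in D546R, D544R and WT and a ratio of 1.19 in D546R (fragment interval -1.26 to 3.90), over a region shared to 20.5% with that of Swsap1. Hemgn had 25, 75 and 60 reads (-1.49, -5.91 to 1.26) and Itga2b 57, 106 and 100 reads (-1.05, -3.53 to 0.87). Klf1 was lower in D544R by a ratio of -1.37 (-4.32 to 0.95). Over the 30 genes, fragment intervals excluded no change in H3K79me3 for 1 higher and 2 lower genes in D546R against WT, beside 5.19% and 5.24% of all 24012 genes. In D544R against WT it did so for 3 higher and 1 lower, beside 4.39% and 2.95%. With so few of 30 genes, nothing particular to them can be read from these counts.

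The marks were compared gene by gene. For Nfe2 the log2 ratio of D546R against WT was -0.92 in H3K79me3 and 0.50 in H3K79me2, and that of D544R against WT was -1.05 and 0.31. For Car2 the ratio of D546R against WT was 0.38 in H3K79me3 and -0.87 in H3K79me2, and for Ank1 it was 0.45 and -0.27. Car2 stood at 0.51 and -0.70 in D546R against D544R. In these cases the counting intervals of the marks lay on opposite sides of 0, but the fragment intervals of at least 1 mark included 0. The share of all genes with such opposite intervals is not given, so nothing particular to the 30 genes can be read from them. Across the 30 genes Spearman's rho between the level per kb in H3K79me3 and in H3K79me2 was 0.23 in D546R, 0.27 in D544R and 0.52 in WT, beside 0.39, 0.43 and 0.46 over all 24012 genes. The marks share region lengths and the genotype's cells, and low counts weaken such a value.

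Other genes of these pathways were described from lists of 78 further genes in the table, of which 41 in H3K79me2 and 47 in H3K79me3 had a mean of at least 100. In WT the 16 GATA1 partners and erythroid regulators had medians of 5.69 times silent in H3K79me2 and 2.81 times in H3K79me3, led by Nfe2l2 at 16.6 and 10.5 times. Several of them, such as Lmo2, Fli1 and Ikzf1, also act in other blood lineages. The 7 other globin genes had WT medians of 1.20 and 1.12 times, 17 other heme and iron genes 2.00 and 1.58 times, 16 other red cell membrane genes 1.22 and 1.37 times, and 22 other megakaryocyte and platelet genes 1.36 and 1.76 times. The globin list moved most between genotypes in H3K79me3, with medians of 2.44, 0.61 and 1.12 times in D546R, D544R and WT. In D546R 3 of its 7 genes reached 3 times silent, Hbb-b2 being highest at 6.98 times, beside 15.4% of all genes, and the list's summed reads were 252, 53 and 140. The genes are short and several are near-identical copies, so their counts are uncertain.

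In H3K79me2 the kinase gene Jak2, which signals for the erythropoietin and thrombopoietin receptors, was higher in D546R than in WT, with 592 reads against 498 and a log2 ratio of 1.07 (fragment interval 0.70 to 1.44). It was 1 of 41 higher and 0 were lower, beside 0.853% and 0.865% of all genes with such a mean. In D544R against WT none of the 41 was past the rule, beside 0.0337% higher and 0.0112% lower. Plek, a substrate of protein kinase C in platelets and leukocytes, was higher in D546R than in D544R, with 436 reads against 244 and a ratio of 1.18 (0.73 to 1.65). There too 1 of 41 was higher and 0 were lower, beside 0.752% and 0.876% of all genes with such a mean.

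In H3K79me3, D546R against WT had 2 of 47 higher and 2 lower, beside 6.95% and 8.91% of all genes with such a mean, so the list held no more calls than the table gives. The 4 are named as values. Cbfa2t3, a corepressor gene of the GATA1 and TAL1 complex, stood at 1.08 (0.36 to 1.82) and Rab27b, a gene of granule transport in platelets, at 1.00 (0.47 to 1.54). The lower ones were Ireb2, an iron sensor gene, at -1.60 (-2.53 to -0.78) and the platelet ADP receptor gene P2ry12 at -1.99 (-3.47 to -0.78). D544R against WT had 0 higher and 2 lower, beside 4.34% and 3.02%, namely P2ry12 at -1.03 (-1.86 to -0.24) and Tal1, a partner of GATA1, at -1.05 (-2.52 to 0.28). Tal1, with 228 reads in D546R and 63 in D544R, was higher in D546R than in D544R by 1.43 (0.02 to 2.94), as was Mafk, the small partner of NF-E2 p45, by 1.02 (-0.34 to 2.43). Ireb2 and the red cell membrane gene Tmod1 were lower there, at -1.23 (-2.17 to -0.39) and -1.38 (-2.39 to -0.48). D546R against D544R thus had 2 of 47 higher and 2 lower, beside 5.78% and 8.3%.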

How the data were processed

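The values are raw read counts in a deposited table, 1 per gene and library and not normalized. Each covers, per the file headers, the transcript and the 2 kb before its start. Bowtie, bedtools, DESeq and mm9 are named by the submitters' processing notes. Their roles and the handling of duplicate reads were not given in the sources used here. Set against RefSeq, end offsets of 3793 neighbouring genes of opposite strand were equal within 10 bases in 3670 pairs, so the 2 kb lies at the lower coordinate on both strands and after the end of minus-strand genes. Of the 21 genes with a RefSeq strand here, 10 are on the minus strand.

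Size factors (median of ratios over the 3 libraries of a mark) were 0.764, 0.972 and 1.35 for D546R, D544R and WT in H3K79me2 and 1.17, 0.872 and 0.982 in H3K79me3. Log2 ratios used a prior count of 0.5 and exact conditional binomial (Clopper-Pearson) 95% intervals. Reads per fragment came from the share of 4591 autosomal regions under 5 kb with no count, with the same density taken for all of them. Intervals cover counting error only, and 10 of the 30 regions overlap others. Scripts ran in Python 3.11.15 with numpy 2.4.6, pandas 2.3.3 and scipy 1.17.1. TMM factors came from edgeR 4.0.16 in R 4.3.3. The rule was also run on simulated counts with counting error alone and planted changes larger than 2-fold. That setting differs from these libraries, so the run gives no error rate for them. The genes, lists and thresholds were chosen with earlier results of these data known. Named were all 30 genes, further pathway genes past the 2-fold rule, the highest and lowest of lists where a result turned on them, and Meis1. Some overlapping genes and examples of lists were named as well. Marker genes and MLL-AF9 targets past the rule were not all given, such as Fcgr3 in H3K79me3 and Hoxa9 in H3K79me2. Input, spike-in and aligned reads were not used here, so a change of a mark in all genes alike would not show.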

Additional observations from a re-analysis of the deposited data

How the results depend on the processing

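No paired analysis was possible because each group had 1 library. Across the alternatives, 92 counts of the 30 genes past the 2-fold rule stayed within 1.5 times while 16 moved. In the main setting each such count was 0 or 1, so this tally says little about stability. The medians of D546R in H3K79me2 ranged from -0.12 to 0.09 against WT and from -0.24 to 0.01 against D544R. In H3K79me3 the median of D546R against WT ranged from -0.11 to 0.39, so these have no settled sign, while D544R against WT ranged from -0.35 to -0.13 and D546R against D544R from 0.23 to 0.64. Of single ratios 945 stayed within their own interval and 6 moved beyond it, all with silent genes as the scaling, which shifted the median of all genes by 0.15 in D546R against WT and 0.22 in D546R against D544R in H3K79me3. Most intervals are wider than these shifts, so ratios that stayed within them say little about stability. Fragment intervals with a limit near 0 depended on the scaling, for Car2, Sptb and Ank1 in H3K79me2 and for Ank1 and Cpox in H3K79me3. Zfpm1 in D546R ranged from 1.24 to 1.41 and Nfe2 in D544R from -1.12 to -1.02. The count minimum mattered most. The counts of the 30 genes that follow are given without the share of all genes at the same setting. Nothing particular to the 30 genes can therefore be read from them. At a mean of at least 300, 0 genes were past the rule in H3K79me3 in D546R or D544R against WT. Without a minimum, D546R against WT had 2 lower in H3K79me2 and 5 higher and 5 lower in H3K79me3, D544R against WT had 2 higher and 5 lower in H3K79me3, and D546R against D544R had 2 lower in H3K79me2 and 6 higher and 5 lower in H3K79me3. At 1.5-fold, D546R against WT had 2 lower in H3K79me2 and, in H3K79me3, 1 lower beside the 1 higher gene (Zfpm1), and D546R against D544R had 1 higher and 1 lower in H3K79me2 and 4 higher and 1 lower in H3K79me3. With fragment intervals 1 further pathway gene stayed lower in D544R against WT and 1 stayed higher in D546R against D544R in H3K79me3, as Tal1 and Mafk dropped out. Depth limits the low genes: 9 to 14 of the 30 had fewer than 30 reads in a library.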
